A study of Rattus norvegicus with 24 samples.

Results

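The 10 genes described here encode the immunoproteasome and the class I peptide-loading machinery: Psmb8, Psmb9, Psmb10, Psme1, Psme2, Tap1, Tap2, Tapbp, B2m and Nlrc5. They were taken by name, and all 10 were found among the 29539 genes of the deposited count table. RNA was sequenced from rat brain after poly(A) selection, in 24 libraries that fall into 3 groups of 8. The first group is named normal control, and whether these animals had a sham operation is not stated. In the model, a stab wound is made in the forebrain as a traumatic brain injury. The SKF group received SKF-81297, an agonist of D1-like dopamine receptors, by intraperitoneal injection once daily for 3 days from 1 h after the injury. The vehicle group is read here as wounded animals given the carrier alone, because the labels say only vehicle. Strain, age, sex, the brain region taken and the time of sampling are not given in the labels. They also do not say that the 8 libraries of a group came from 8 animals, so the p-values measure the spread between these libraries.

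Every nucleated cell degrades cytosolic proteins in the proteasome and shows some of the resulting peptides on MHC class I molecules. Interferons induce 3 catalytic subunits that replace the constitutive ones to form the immunoproteasome, together with the PA28 cap that opens the 20S core. The TAP transporter moves the peptides into the endoplasmic reticulum, where tapasin holds empty class I molecules until a peptide binds. In the healthy brain, neurons and glia are known to keep this pathway low.

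The promoters of the members show what the genes have in common apart from their products. RefSeq windows on the GRCr8 build, running from 250 bases before to 50 bases after each start site, were matched for 9 of the 10 members, the exception being Nlrc5. The interferon-stimulated response element, searched as GAAANNGAAA on both strands, is the site bound by interferon regulatory factors. It was present in 7 of the 9 windows, against 3.92% of all 33469 windows in the table. The stretches below are shown because they carry that element, in capitals, with 60 bases in all and the strand of the gene. In Tap1 and Psmb8 the match lies on the reverse strand, and in Tapbp 2 overlapping matches form the capitals.

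B2m, chr3:129549154-129549213, plus strand: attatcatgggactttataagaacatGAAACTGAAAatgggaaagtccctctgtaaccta
Tap1, chr20:4668631-4668690, minus strand: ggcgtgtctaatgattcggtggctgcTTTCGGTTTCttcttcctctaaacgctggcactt
Tap2, chr20:4652304-4652363, minus strand: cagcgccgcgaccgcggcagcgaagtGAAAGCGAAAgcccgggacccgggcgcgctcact
Tapbp, chr20:4967867-4967926, minus strand: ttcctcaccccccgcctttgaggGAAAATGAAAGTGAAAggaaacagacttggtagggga
Psmb8, chr20:4657002-4657061, minus strand: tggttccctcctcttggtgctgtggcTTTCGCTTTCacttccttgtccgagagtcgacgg
Psmb10, upstream match, chr19:50743332-50743391, minus strand: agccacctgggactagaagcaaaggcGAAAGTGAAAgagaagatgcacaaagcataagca
Psmb10, downstream match, chr19:50743276-50743335, minus strand: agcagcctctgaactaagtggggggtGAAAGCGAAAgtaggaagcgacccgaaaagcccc
Psme2, chr15:33052771-33052830, minus strand: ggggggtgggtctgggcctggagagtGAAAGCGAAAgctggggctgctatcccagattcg

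The same 10 letters, GAAAGCGAAA, stand in Tap2, in Psme2 and in the downstream match of Psmb10, and on the reverse strand in Psmb8. In Psmb8 the match spans the start site, from -4 to 6 (the first transcribed base is 1 and there is no base 0), and in B2m it lies farthest upstream, from -150 to -141. No such match was found in the windows of Psmb9 and Psme1. The kappa B motif, searched as GGGNNNNTCC on both strands, was present in B2m, Tap1, Tapbp, Psme1 and Psme2. That is 5 of 9 windows, against 17.9% of all windows. A gamma activated site, searched as TTCNNNGAA, was found in Psmb8 alone (8.87% of all windows), and the Y box CCAAT in B2m, Psmb8 and Psmb9 (37.5% of all windows). In B2m the kappa B letters match both strands at nearly the same place, and the interferon-stimulated element stands just upstream of them. Tap1 and Psmb9 are neighbours on opposite strands of chromosome 20, and their windows share 44 bases. Psmb8 and Tap2 lie on the same chromosome in the same stretch of the RT1 complex, the rat MHC, and Tapbp lies further along it. These matches are a description of letters in a window and no test of binding.

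**Figure D1:**
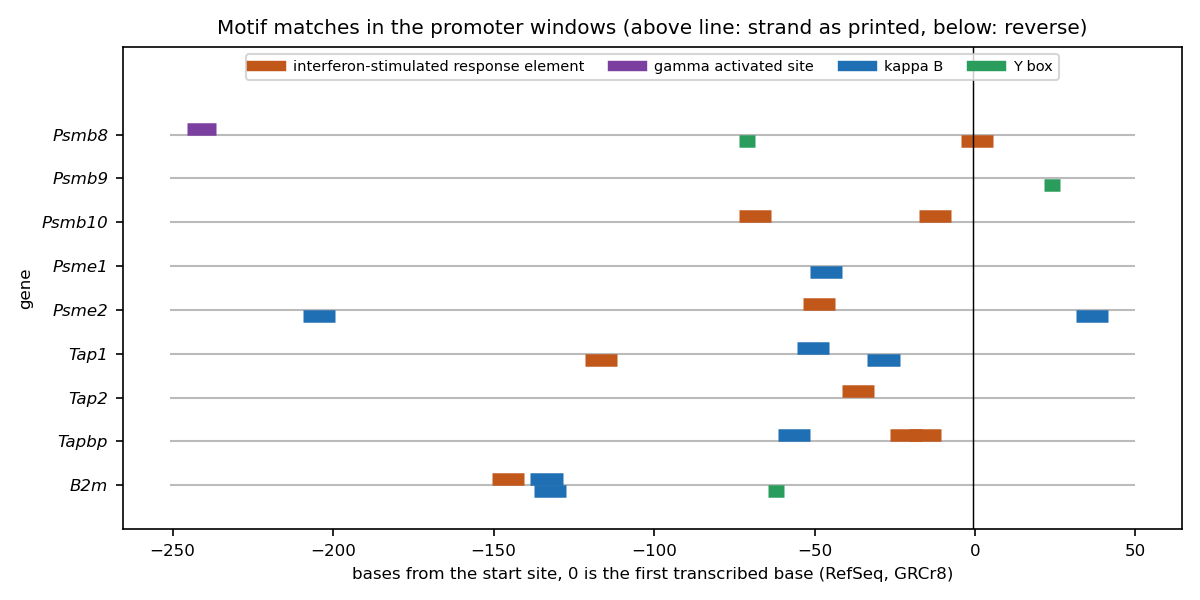
Positions of the 4 motifs in the promoter windows of 9 members; the x axis gives bases from the start site with the first transcribed base drawn at 0, bars above each line match the strand of the gene and bars below it the reverse strand. Orange bars, the interferon-stimulated response element, are seen in 7 of the 9 windows, and all but that of Psmb8 lie wholly upstream of the start site.

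The 24 libraries held between 8911339 and 12383368 counts each. Levels are given below as counts-per-million (CPM) on library sizes scaled by TMM, and changes as log2 fold changes of the edgeR quasi-likelihood test, with p-values adjusted over all 14421 genes tested. Normal control 6 stood apart on the second principal component of log2 CPM, at -61.0 against -17.9 to 18.6 in the other 23 libraries. It also had 0 counts of the Y-linked Eif2s3y, which had 538 to 833 counts elsewhere. In normal control 4, the muscle actin gene Acta1 had 9654 counts, against 41 to 128 in the other libraries. The tests of the members, their ratios and their correlations were recomputed without these 2 libraries. The results below for other genes and for the spread between libraries rest on all 24. Markers of neurons, astrocytes and oligodendrocytes were present in all groups of this brain tissue.

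All 10 members passed the filter on low counts and all 10 were higher in vehicle than in normal control. The median log2 fold change of the members was 1.09, beside -0.01 for all genes tested. The background is large, since 26.9% of tested genes were called higher and 27.1% lower in this comparison. In 8 of the 10 members every vehicle library exceeded every normal control library, the exceptions being Psmb10 and Psme1, and 11.6% of all tested genes were higher without overlap in this way. SKF was higher than normal control for all 10 members too, with a median of 1.03, where 25.5% of tested genes were called higher and 24.7% lower. In that comparison Tapbp alone overlapped, and 11.5% of all tested genes were higher without overlap. Both comparisons use the same normal control libraries, so their values are given side by side and not as 2 separate lines of evidence. Between SKF and vehicle, none of the 10 was called, and 0% of all tested genes was called in either direction. Without normal control 4 and 6, all 10 members remained called in both comparisons with normal control. In bulk tissue, a change in the number of cells of a type and a change in RNA per cell cannot be told apart.

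**Figure D2:**
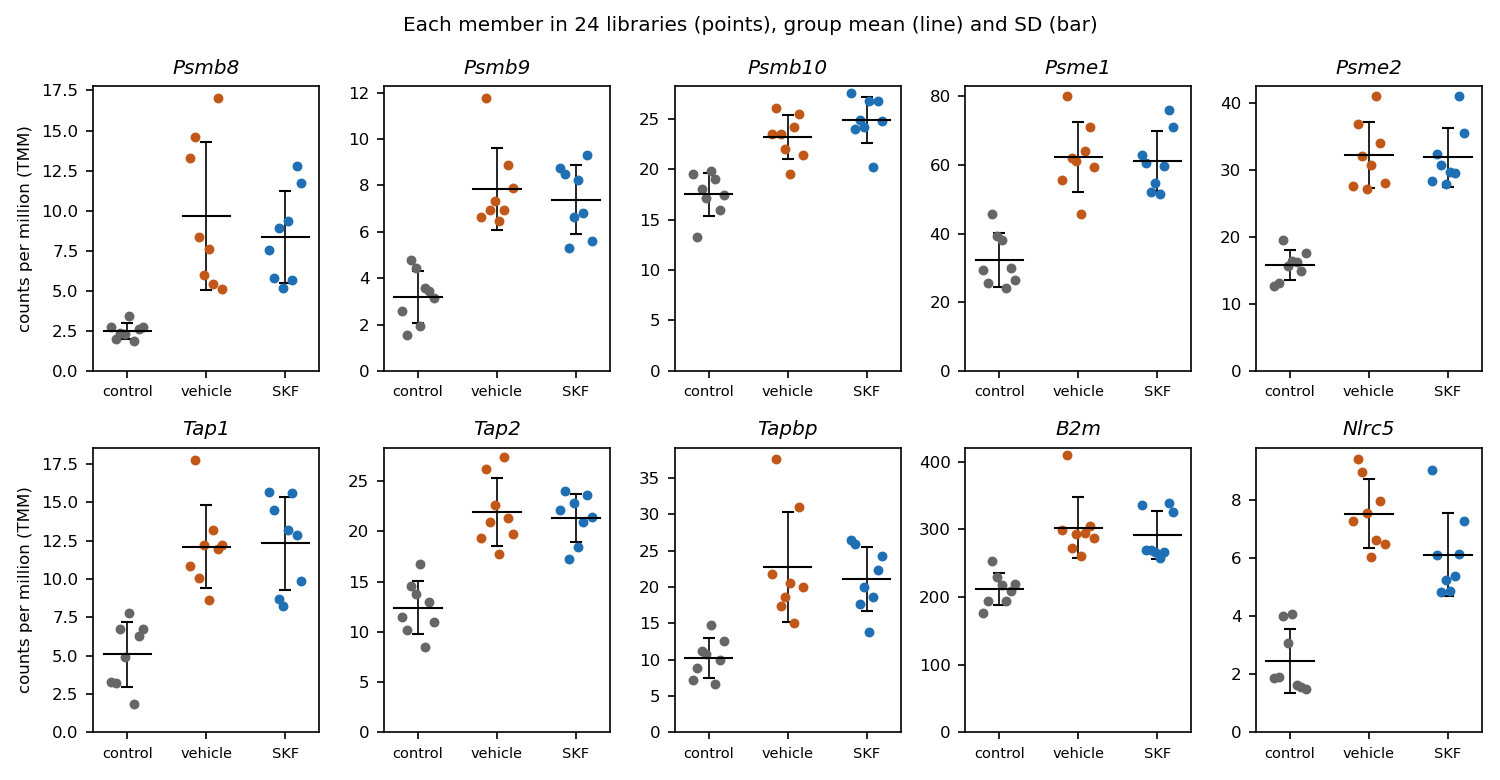
CPM of each member (y axis, from 0) in the 8 normal control, 8 vehicle and 8 SKF libraries; points are libraries, lines are group means and bars are SD. Vehicle and SKF points lie above nearly all normal control points in every panel and overlap each other in every panel.

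The 3 catalytic subunits of the immunoproteasome differed in the size of their change. Psmb8, the inducible chymotrypsin-like subunit beta5i, ranged from 1.84 to 3.43 CPM in normal control, with a median of 2.49. In vehicle it ranged from 5.12 to 17.0 CPM (median 7.98) and in SKF from 5.15 to 12.8 CPM (median 8.23). Every wounded library lay above every normal control library. Its log2 fold change was 1.94 ± 0.26 (SE, n = 8 and 8) in vehicle, a 3.83-fold difference (edgeR adjusted p = 5.40e-07). It was 1.73 ± 0.26 in SKF (edgeR adjusted p = 3.67e-06). These were the largest changes among the members in both comparisons. The vehicle libraries were uneven, because 3 of them stood at 13.3, 14.6 and 17.0 CPM while the next was at 8.34 CPM.

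Psmb9, the inducible subunit beta1i, had 1.53 to 4.80 CPM in normal control, with a median of 3.31. It had 6.46 to 11.8 CPM in vehicle (median 7.13) and 5.29 to 9.30 CPM in SKF (median 7.52). The normal control libraries did not overlap the wounded ones. On the log2 scale the change was 1.30 ± 0.19 in vehicle, or 2.46-fold (edgeR adjusted p = 1.81e-06), and 1.21 ± 0.19 in SKF. Psmb9 and Psmb8 thus shared a direction, with a larger value for Psmb8.

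Psmb10, the inducible trypsin-like subunit beta2i, had the smallest change of the 10 members in vehicle. It was at 13.3 to 19.8 CPM in normal control (median 17.8), 19.5 to 26.1 CPM in vehicle (median 23.5) and 20.2 to 27.5 CPM in SKF (median 24.8). A single vehicle library fell within the normal control range, and no SKF library did. This gave a log2 fold change of 0.40 ± 0.08 in vehicle, or 1.32-fold (edgeR adjusted p = 0.000132), and 0.50 ± 0.08 in SKF (edgeR adjusted p = 7.70e-06). The Psmb10 window holds 2 separate interferon-stimulated elements and the Psmb9 window holds none. The Tap1 element, from -121 to -112 in Tap1, lies between the start sites of Tap1 and Psmb9, which are 457 bases apart. That element falls outside the Psmb9 window. Whether such elements bear on the size of a change was not tested.

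The genes of the PA28 cap moved by similar amounts. Psme1, which encodes PA28 alpha, had 24.1 to 45.8 CPM in normal control (median 29.8), 45.7 to 80.2 CPM in vehicle (median 61.6) and 51.5 to 76.0 CPM in SKF (median 60.1). Vehicle and normal control touched at a single point, where the highest normal control library stood at 45.8 CPM and the lowest vehicle library at 45.7 CPM. In log2 units the change was 0.95 ± 0.12 in vehicle, or 1.93-fold (edgeR adjusted p = 4.68e-07), and 0.92 ± 0.12 in SKF. Psme2, which encodes the partner PA28 beta, had 12.7 to 19.6 CPM in normal control (median 16.0), 27.3 to 41.2 CPM in vehicle (median 31.5) and 27.9 to 41.1 CPM in SKF (median 30.3). Its groups were well apart, and its log2 fold change of 1.03 ± 0.10 in vehicle, or 2.04-fold, had the smallest adjusted p of the members (edgeR, 1.71e-09). In SKF it was 1.01 ± 0.10 (edgeR adjusted p = 2.63e-09).

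Both chains of the peptide transporter were higher after the wound. Tap1 had 1.84 to 7.79 CPM in normal control (median 5.60), 8.62 to 17.8 CPM in vehicle (median 12.1) and 8.24 to 15.7 CPM in SKF (median 13.0). The groups did not overlap, although the normal control libraries spanned a 4.22-fold range, with the lowest value in normal control 6. Its log2 fold change was 1.24 ± 0.22 in vehicle, or 2.36-fold (edgeR adjusted p = 2.50e-05), and 1.27 ± 0.21 in SKF. Without normal control 4 and 6 these values were 1.09 and 1.12. Tap2 had 8.46 to 16.8 CPM in normal control (median 12.2), 17.8 to 27.4 CPM in vehicle (median 21.1) and 17.3 to 24.1 CPM in SKF (median 21.8). The log2 fold change of Tap2 was 0.82 ± 0.11 in vehicle, or 1.76-fold (edgeR adjusted p = 9.69e-07), and 0.78 ± 0.11 in SKF.

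Tapbp encodes tapasin, the chaperone that bridges TAP and the empty class I molecule. It had 6.61 to 14.7 CPM in normal control (median 10.4), 15.1 to 37.6 CPM in vehicle (median 20.3) and 13.8 to 26.5 CPM in SKF (median 21.2). One normal control library, at 14.7 CPM, reached above the lowest SKF library. The log2 fold change was 1.15 ± 0.18 in vehicle, or 2.21-fold (edgeR adjusted p = 9.18e-06), and 1.04 ± 0.18 in SKF (edgeR adjusted p = 3.66e-05). The vehicle group was again uneven, with its 2 highest libraries at 37.6 and 31.0 CPM and the next at 21.8 CPM.

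B2m encodes beta-2 microglobulin, the light chain shared by all class I molecules, and was the most abundant member. It had 177 to 253 CPM in normal control (median 213), 261 to 410 CPM in vehicle (median 294) and 259 to 340 CPM in SKF (median 270). No wounded library fell into the normal control range. The log2 fold change was 0.52 ± 0.09 in vehicle, or 1.43-fold (edgeR adjusted p = 1.07e-05), and 0.46 ± 0.09 in SKF (edgeR adjusted p = 5.34e-05). Vehicle 2 had the value of 410 CPM, and without that library the log2 fold change in vehicle was 0.44.

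Nlrc5 encodes the transactivator that assembles on class I promoters, and was the least abundant member once gene length was taken into account. It had 1.48 to 4.08 CPM in normal control (median 1.90), 6.02 to 9.39 CPM in vehicle (median 7.39) and 4.84 to 9.03 CPM in SKF (median 5.73). The groups did not overlap normal control, and the log2 fold change of 1.61 ± 0.20 in vehicle, or 3.05-fold (edgeR adjusted p = 1.58e-07), was second only to that of Psmb8 among the members. In SKF it was 1.31 ± 0.20 (edgeR adjusted p = 4.90e-06). Within normal control, 3 libraries stood at 3.06 to 4.08 CPM and the next at 1.91 CPM.

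The SKF and vehicle libraries were not separated for any member. The log2 fold changes of SKF against vehicle ran from -0.30 for Nlrc5 to 0.10 for Psmb10, with a median of -0.05, beside 0.00 for all genes tested. The edgeR adjusted p-values of the members ran from 0.937 to 0.991, and 0 of the 10 had an unadjusted p under 0.05. Over all genes, edgeR called 0, with 715 at an unadjusted p under 0.05, and DESeq2 called 6, none of them a member. The intervals show which differences these libraries could have missed. For Psme2 the 95% interval of the fold ran from 0.862 to 1.14, and for B2m from 0.853 to 1.09. It was wider for Psmb8, from 0.618 to 1.21, and for Nlrc5, from 0.622 to 1.06. For Nlrc5, 7 of the 8 SKF libraries lay below the vehicle median of 7.39 CPM, at an unadjusted p of 0.122 (edgeR adjusted p = 0.937).

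**Figure D3:**
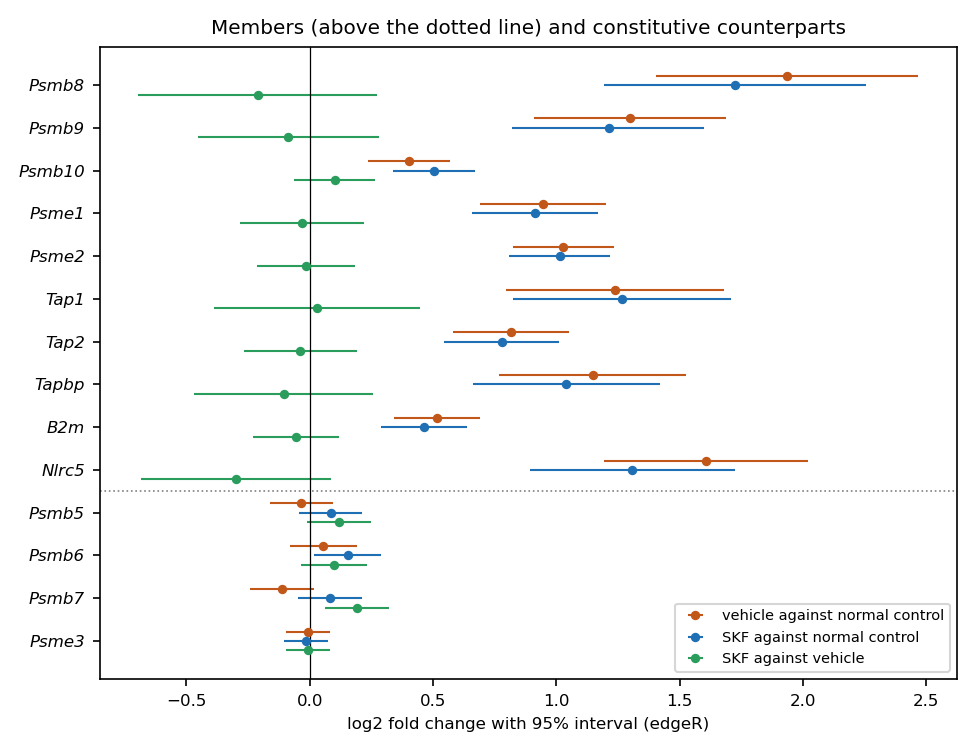
Log2 fold changes with 95% intervals (x axis) of the 10 members and, below the dotted line, of Psmb5, Psmb6, Psmb7 and Psme3. The comparisons are vehicle and SKF against normal control and SKF against vehicle. The members' intervals against normal control all lie above 0, while all 10 intervals of SKF against vehicle include 0. Below the line, the SKF against vehicle interval of Psmb7 runs from 0.06 to 0.32 (edgeR adjusted p = 0.838). Those of Psmb5, Psmb6 and Psme3 include 0.

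Each inducible catalytic subunit has a constitutive counterpart that it replaces in the assembled particle. Psmb5, Psmb6 and Psmb7 encode these counterparts. Psme3 encodes PA28 gamma, the nuclear relative of the cap, and serves here only as a reference for Psme1 and Psme2. In vehicle the log2 fold changes of Psmb5, Psmb6, Psmb7 and Psme3 were -0.03, 0.06, -0.11 and -0.01. None of these passed the test (edgeR adjusted p from 0.138 to 0.911). Psme4, a different cap protein (PA200), did pass, at 0.41 ± 0.06 (edgeR adjusted p = 1.34e-06). To set 2 genes against each other within a library, transcripts-per-million (TPM), which account for gene length, were divided. These ratios describe messenger RNA and not the makeup of the particles.

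In normal control, the TPM of Psmb8 was 1.32% to 2.21% of that of Psmb5, with a median of 1.65%. It was 3.56% to 11.5% in vehicle (median 5.57%) and 3.16% to 7.21% in SKF (median 5.19%). For Psmb9 over Psmb6 the median went from 2.12% in normal control to 4.34% in vehicle, with 4.17% in SKF. For Psmb10 over Psmb7 it was 4.84%, 6.90% and 6.44% in the same order. The constitutive transcripts thus stayed more than 8-fold above their inducible counterparts in every library. In the cap the relation was different, since the median TPM of Psme1 was 181% of that of Psme3 in normal control, with 383% in vehicle and 353% in the SKF libraries. Psme2 was at 90.1%, 179% and 173% of Psme3, and so was below Psme3 in the median normal control library and above it after the wound.

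On the log2 scale the Psmb8 ratio was higher in vehicle than in normal control by 1.84 ± 0.26 (SE), and the Psmb9 ratio by 1.29 ± 0.22. The Psmb10 ratio was higher by 0.52 ± 0.10, the Psme1 ratio by 0.97 ± 0.15 and the Psme2 ratio by 1.03 ± 0.12. All 5 passed an exact two-sided permutation test over all assignments of the 16 libraries to 2 groups of 8, with p adjusted over 15 tests from 0.000333 to 0.000466. The smallest unadjusted p that these assignments allow is 0.000155. The 5 ratios in SKF also exceeded those in normal control, by 1.58, 1.10, 0.43, 0.95 and 1.03 in the same order, with the same range of adjusted p in the exact test. Between SKF and vehicle the differences were -0.26 ± 0.29, -0.19 ± 0.15, -0.10 ± 0.07, -0.02 ± 0.11 and -0.00 ± 0.11. None of these passed (exact permutation test, adjusted p from 0.261 to 0.965).

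**Figure D4:**
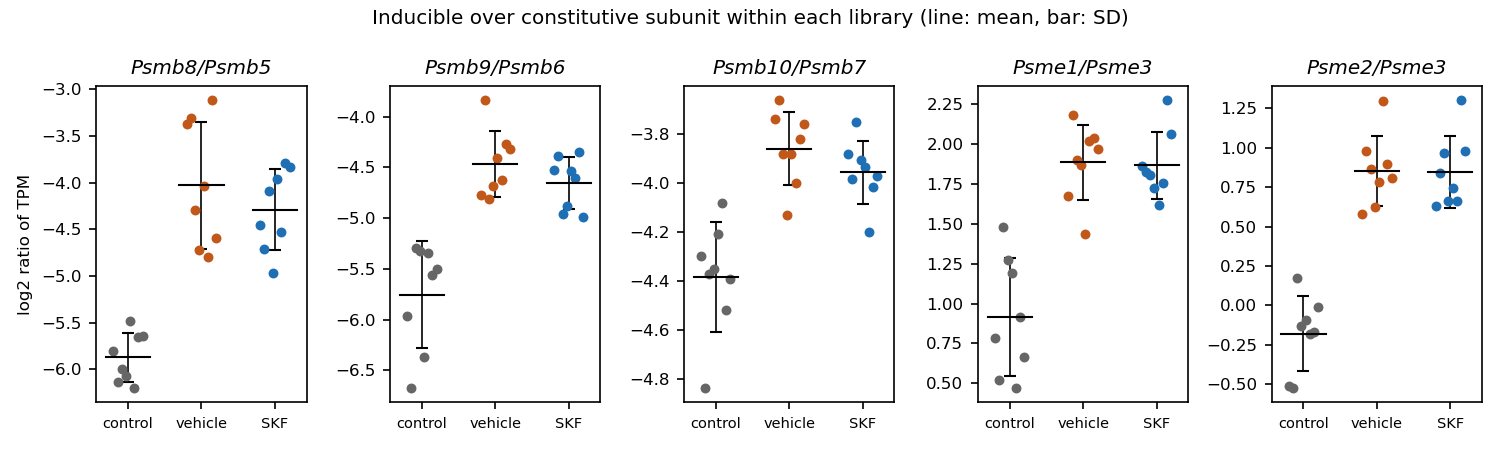
Log2 ratio of TPM (y axis) in the 24 libraries, with lines for group means and bars for SD. Each inducible catalytic subunit is set over its constitutive counterpart, and Psme1 and Psme2 over Psme3 as a reference. For Psmb8/Psmb5, Psmb9/Psmb6 and Psme2/Psme3 all vehicle and SKF points lie above all normal control points.

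Compared per length, the members kept nearly the same order in all groups. In normal control the median TPM was 269 for B2m, 57.5 for Psme1 and 28.5 for Psme2, and the ranges of these 3 genes did not overlap. Psmb10 at 14.3 TPM and Tap2 at 12.5 TPM did not differ beyond their spread, with Psmb10 higher in 4 of 8 libraries. Tapbp followed at 8.93 TPM, and then Tap1 (4.80), Psmb8 (4.39) and Psmb9 (4.02), whose ranges overlapped. Nlrc5 was lowest, at 0.666 TPM, below the range of Psmb9. In vehicle, Tap2 (23.3 TPM) stood above Psmb10 (21.0 TPM) in 8 of 8 libraries, and Psmb8 (15.3 TPM) above Tap1 (11.0 TPM) in 6 of 8. Nlrc5 remained the lowest, at 2.84 TPM in vehicle and 2.16 TPM in SKF.

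The other parts of the proteasome were followed from lists of their genes. Counts in these and the later lists stand beside 26.9% of all tested genes called higher and 27.1% lower in vehicle. In SKF against normal control these shares were 25.5% and 24.7%. Of the 15 shared 20S subunits and assembly factors tested, 7 were higher and 0 lower in vehicle, with a median log2 fold change of 0.19. Among them were Psmb4, a structural subunit (0.29 ± 0.06, edgeR adjusted p = 0.000260), and Psmg2, an assembly chaperone (0.42 ± 0.12, edgeR adjusted p = 0.00500). Of 19 genes of the 19S regulatory particle, 11 were higher and 1 lower, with a median of 0.14. Psmd5, which aids the assembly of the 19S base, was higher by 0.61 ± 0.07 (edgeR adjusted p = 1.17e-07), and Psmd14, its deubiquitinase, by 0.28 ± 0.06. The ATPase gene Psmc5 was lower, at -0.21 ± 0.06 (edgeR adjusted p = 0.00240). In SKF against normal control, 10 of the 15 core and assembly genes were higher and 0 lower, and of the 19 regulatory genes 12 were higher and 1 lower. No gene of these lists was called between SKF and vehicle.

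In the endoplasmic reticulum, 5 of 8 folding and trimming genes were higher in vehicle and 0 were lower, with a median log2 fold change of 0.23. Erap1, the aminopeptidase that trims peptides to the length class I molecules hold, went from 15.9 to 36.4 CPM in normal control to 40.4 to 54.8 CPM in vehicle. Its log2 fold change was 0.80 ± 0.11 (edgeR adjusted p = 1.47e-06). Hspa5, the general chaperone BiP, was higher by 0.45 ± 0.08 (edgeR adjusted p = 6.09e-05). The SKF libraries also had 5 of the 8 higher and 0 lower than normal control, and none called against vehicle. Of 4 class I relatives tested, 0 were higher and 1 was lower. That gene was Mr1, which presents vitamin metabolites to invariant T cells, at -1.20 ± 0.22 in vehicle (edgeR adjusted p = 4.75e-05) and -0.83 ± 0.22 in SKF (edgeR adjusted p = 0.00217).

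The class I heavy chains that could be followed, to which B2m binds, did not move as a block. Names starting with RT1-A were searched for and none was found, so heavy chains of that name were not measured here. Of 20 RT1 heavy-chain genes, 14 passed the filter, with a median log2 fold change of 0.05 in vehicle. In that comparison, where 26.9% of all tested genes were called higher and 27.1% lower, 3 of the 14 were higher and 2 lower. The higher ones were RT1-CE1 (1.29 ± 0.44, edgeR adjusted p = 0.0150), RT1-CE11 (1.48 ± 0.57, edgeR adjusted p = 0.0310) and RT1-N3 (0.50 ± 0.17, edgeR adjusted p = 0.0160). The lower ones were RT1-T24-4 (-0.88 ± 0.21, edgeR adjusted p = 0.000824) and RT1-S3 (-0.46 ± 0.17, edgeR adjusted p = 0.0240). In SKF against normal control 0 were higher and 2 lower, and in SKF against vehicle none was called. RT1-CE16, with the highest median CPM among the heavy-chain genes in both wounded groups, had 4.34 to 80.3 CPM in normal control, 12.3 to 133 CPM in vehicle and 35.7 to 121 CPM in SKF, and its log2 fold change of 0.83 ± 0.52 in vehicle did not pass (edgeR adjusted p = 0.184). Many RT1 heavy-chain genes are known as close paralogs, and how the counting split reads among them was not tested, so these values are uncertain.

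Genes known to act upstream of the members did not all change. Of 23 tested genes of interferon signalling and MHC transactivation, 15 were higher and 0 lower in vehicle, with a median log2 fold change of 0.44. Irf1, the factor that drives immunoproteasome genes, had 3.06 to 6.40 CPM in normal control and 8.91 to 16.1 CPM in vehicle. Its log2 fold change was 1.48 ± 0.14 in vehicle (edgeR adjusted p = 1.49e-09) and 1.30 ± 0.14 in SKF. Irf9, an interferon regulatory factor, was higher by 1.15 ± 0.11 (edgeR adjusted p = 8.83e-10). Ciita, the class II transactivator and a relative of Nlrc5, was higher by 2.59 ± 0.33 (edgeR adjusted p = 2.13e-07). In SKF against normal control 16 of the 23 were higher and 0 lower, and against vehicle none was called.

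Ifng, the gene of interferon gamma, had 0 counts in all 24 libraries, which allows up to 0.337 CPM in the shallowest of them. Irf7, which is strongly induced by type I interferon and was singled out after its value was seen, was at 2.82 to 7.88 CPM in normal control and 3.58 to 5.89 CPM in vehicle. Its log2 fold change was -0.03 ± 0.22 (edgeR adjusted p = 0.907).

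Leukocyte and macrophage markers were higher in the same comparisons as the members. All 10 were higher in vehicle than in normal control, where 26.9% of all tested genes were called higher. In SKF against normal control all 10 were higher too, beside 25.5% of all tested genes. The 10 markers summed to 64.7 to 84.5 CPM in normal control. They summed to 346 to 516 CPM in vehicle and 278 to 478 CPM in SKF. None of the 10 was at 0 in all libraries of a group. Ptprc, the pan-leukocyte marker CD45, was higher by 2.37 ± 0.15 in vehicle (edgeR adjusted p = 5.13e-13), Cd14 by 4.85 ± 0.20 and the scavenger receptor gene Msr1 by 8.56 ± 0.25. With group means taken out, the members' Pearson correlations with Ptprc in log2 CPM ran from 0.07 for Tap1 to 0.59 for Nlrc5. That for B2m was 0.15, and none of these was tested. Of 13 markers of CD8 T and NK cells in the table, 3 passed the filter and 3 of 3 were higher. Among them were Cd2 (3.19 ± 0.42) and Cd8a (2.92 ± 0.49, edgeR adjusted p = 1.28e-05). Cd8a had 0 to 4 counts in normal control and 5 to 22 in vehicle, so it passed the filter through the wounded groups alone. A marker that passes in this way can hardly be lower after the wound, so 3 of 3 is not read as a result. Cd3d, Cd3e, Cd3g, Cd8b, Gzma, Gzmk, Il2rb, Klrd1, Nkg7 and Prf1 did not pass. The summed level of the 13 markers stayed low, at 1.63 to 4.49 CPM in normal control. It was 4.37 to 7.69 CPM in vehicle and 3.58 to 8.32 CPM in SKF. The part of these cells in the members' levels was not tested. Which of the transcripts came from resident cells and which from cells that entered the tissue was not tested either.

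Markers of resting microglia, oligodendrocytes, neurons and astrocytes were lower in large part. Of 6 resting microglia markers tested, 0 were higher and 4 lower in vehicle, including P2ry13 (-1.95 ± 0.26) and Selplg (-1.17 ± 0.15). Of 6 oligodendrocyte markers 6 were lower, with Cnp at -0.90 ± 0.10, and of 8 neuron markers 5 were lower, with Tubb3 at -0.55 ± 0.08 and Nefl at -0.60 ± 0.11. Of 6 astrocyte markers 5 were lower, including Gja1 (-0.79 ± 0.09), while Gfap was higher by 2.46 ± 0.12. Of 7 endothelial markers 3 were higher, including Pecam1 (0.65 ± 0.09) and Cdh5 (0.64 ± 0.09), and Emcn was lower at -0.32 ± 0.11 (edgeR adjusted p = 0.0113). All the fold changes in this paragraph passed the edgeR test, and none of these marker lists held a gene called between SKF and vehicle.

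The spread between libraries of the same group differed among the members. Within groups, the SD of log2 CPM was 0.50 for Psmb8, 0.48 for Tap1, 0.39 for Psmb9 and Nlrc5, and 0.38 for Tapbp, beside a median of 0.20 over all genes. It was 0.26 for Psme1, 0.24 for Tap2, 0.20 for Psme2, 0.18 for B2m and 0.16 for Psmb10. Psmb8, Psmb9, Tap1 and Nlrc5 also had the lowest counts of the members, and the part of counting noise in their spread was not tested. In vehicle, library 2 held the highest CPM of 7 of the 10 members and library 5 the lowest of 7. In SKF, library 7 held the highest of 5 members. In normal control, library 6 held the lowest of 5, library 5 the highest of 6 and library 3 the highest of 4.

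With the group means taken out, all 45 pairs of members had a positive Pearson correlation of log2 CPM over the 24 libraries, from 0.10 to 0.80 with a median of 0.45. Of these 45, 16 passed a two-sided permutation test within groups (100000 resamples, adjusted over 45) by both Pearson's r and Spearman's rho. The strongest pair was Psme1 and Nlrc5 (r = 0.80, rho = 0.88, permutation adjusted p = 0.000900 for r). Without the 2 libraries farthest from the median of Psme1, r was 0.74. Taken group by group r was 0.90 for normal control, 0.76 for vehicle and 0.62 for SKF. Tap2 and Psme1 followed (r = 0.80, rho = 0.82, permutation adjusted p = 0.000900), with r = 0.77 without the 2 farthest libraries. Psmb8 and Psmb9, which enter the same particle, had r = 0.12 and rho = 0.07 (permutation p = 0.53 for r), and r = -0.12 without the 2 farthest libraries. Libraries share a scaling factor across genes, and its part in these values was not tested. The share of such pairs among all genes was not measured, so neither count is read as particular to the members.

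**Figure D5:**
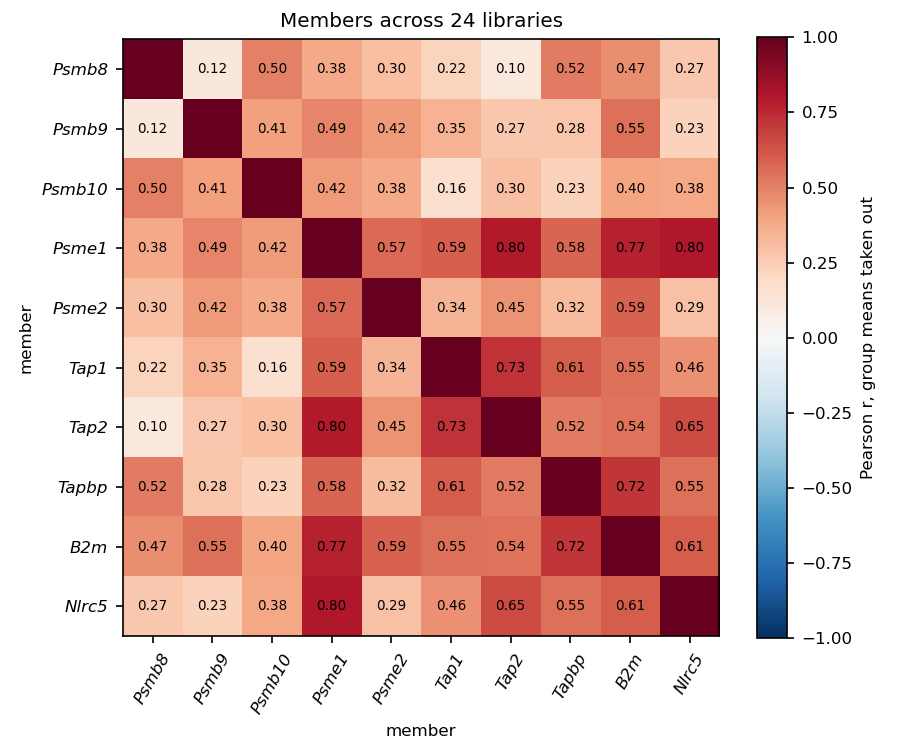
Pearson correlation of log2 CPM between members over the 24 libraries after the group means were taken out; the colour scale runs from -1 to 1. Psme1, Tap2, B2m and Nlrc5 have values of 0.54 to 0.80 among themselves, and the Psmb8 row holds the lowest value, 0.10.

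The genes most like 3 members in this measure were sought outside the set, at mean log2 CPM of 1 or more, without placeholder symbols. For B2m they were Ifitm2 (r = 0.91), an interferon-induced membrane protein, Mxra8 (0.86), Cenpb (0.86), the lysosomal protease gene Ctsl (0.84) and Mesd (0.83). For Nlrc5 they were Gpx1 (0.89), a glutathione peroxidase, Ccdc102a (0.85), Txndc15 (0.83), Etfa (0.79) and Vamp8 (0.78). For Psmb8 they were Gcsh (0.79), Cct2 (0.76), Cenpm (0.75), N4bp3 (0.74) and Arpc4 (0.70), none of which belongs to this pathway. These are the highest correlations among the genes searched over 24 libraries and are given as a description. Genes with placeholder symbols, such as names starting with LOC, were left out of the search.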

How the data were processed

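The authors deposited a table of raw read counts and a table of TPM for 29539 genes in 24 libraries of rat brain. Per the labels' protocols, libraries were made with poly(A) selection and a directional kit, and the submitters' processing notes name the mRatBN7.2 build. Neither the read aligner nor the counter is given in the sources used here. The members and gene lists were chosen with earlier results of these data known.

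Counts were tested in edgeR 4.0.16 (R 4.3.3): TMM, a filter on low counts by group, and the quasi-likelihood F test with 1 fit to 3 groups (21 residual degrees of freedom). Benjamini-Hochberg adjustment used all 14421 genes that passed the filter, at a threshold of 0.05. SE is the absolute log2 fold change over the root of F. The biological coefficient of variation was 16.2%. TPM served for levels between genes and for log2 ratios (pseudocount 0.1). The edgeR step was tested on simulated data.

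Named genes outside the members were, for each list, the 2 smallest adjusted p-values in each direction among those passing in vehicle against normal control, and Ifng, Irf1, Ciita, Ptprc and Cd8a. RT1-CE11, RT1-CE16 and Irf7 were added after their values were seen. For B2m, Psmb8 and Nlrc5, the 5 most alike genes whose symbol is no placeholder are named. Some genes that this rule names are not reported here. Alternatives were DESeq2 1.42.0, limma 3.58.1, other scalings and filters, a replicate block and leaving out libraries. Promoter sequences are RefSeq's, on GRCr8.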

Additional observations from a re-analysis of the deposited data

Results flagged for a closer look

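Among 45 groups of 8 libraries tested for a lone library far from the rest, 2 were found, and chance alone gives about 1 in 20. B2m in vehicle was marked by vehicle 2, whose gap to the nearest library was 0.652 of the group's range of log2 CPM. Vehicle 2 stood at 410 CPM and the next library at 306 CPM. Psmb10 in SKF was marked by SKF 6, with a gap of 0.555 of the range, at 20.2 CPM. No member changed its call without either library.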

How the results depend on the processing

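All 10 members were called higher in vehicle and in SKF than in normal control, and 0 of 10 differed between SKF and vehicle, under each of the 34 alternatives to the fit. The highest edgeR, DESeq2 or limma adjusted p of any member was 0.000764 for vehicle and 0.000410 for SKF against normal control, and the lowest for SKF against vehicle was 0.800. Log2 fold changes in vehicle ranged from 1.07 (log2(TPM + 1)) to 1.75 for Nlrc5, from 1.69 to 2.03 for Psmb8, from 1.09 to 1.46 for Tap1 and from 0.35 to 0.53 for Psmb10. With limma on log2(TPM + 1), which also tested a different set of 15280 genes, the median of all genes in vehicle was 0.11 in place of -0.01, with 5476 genes higher and 2408 lower in place of 3879 and 3904. On the TPM scale B2m stood at up to 0.64. Replicate numbers did not pair the libraries: the 24 same-number correlations ran from -0.24 to 0.08, and 0 of 24 libraries correlated best with its own number. With the replicate block, 10, 0 and 10 members were called in the 3 comparisons and 7434, 0 and 6830 genes in all. The small differences between SKF and vehicle changed sign for B2m, Tap1, Tap2, Tapbp, Psmb9, Psme1 and Psme2 under some alternatives, without being called. The depth gave Psmb8, Psmb9, Tap1 and Nlrc5 as few as 15 to 17 counts in a normal control library, so their levels there are the least precise.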

Other observations

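Some heavy-chain genes differed more between libraries of the same group than between groups. RT1-N2 had 0 counts in 10 of the 24 libraries, namely 3 normal control, 3 vehicle and 4 SKF libraries, and 16 to 74 counts in the others, and a count of 0 allows up to 3 counts. RT1-CE11 ran from 1.03 to 16.2 CPM in vehicle and from 0.801 to 13.6 CPM in SKF.

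Of the 20 correlations of the members with RT1-CE11 and RT1-CE16 over 24 libraries, group means taken out, 1 passed adjustment. This was Psmb8 with RT1-CE11, a pair chosen after the values were seen (Pearson r = 0.69, Spearman rho = 0.74, permutation adjusted p = 0.00840 and 0.00440). Without the 2 libraries farthest from the median of Psmb8, r was 0.70. It was -0.06 within normal control, 0.77 within vehicle and 0.93 within SKF. Psmb9 had r = 0.26 with RT1-CE11, and Tap1 and Tap2 had -0.19 and -0.15.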
